A study of Mus musculus with 11 samples.

Results

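Ribosome biogenesis was described through 48 genes in sorted B cells of splenic germinal centers from mice. Germinal centers are the sites where B cells divide, mutate their antibody genes and compete for selection. The 48 genes were chosen by symbol as a list of nucleolar factors and classical targets of the transcription factor MYC, and 48 of 48 were found among the 48593 genes of the deposited table. Mice received sheep red blood cells, and 12 days later B220+ PNA+ CD95+ cells were taken by flow sorting for RNA sequencing. Total RNA was the starting material of the libraries. CBP-KO mice (3 libraries) were Crebbpfl/fl;Ep300+/+;Cg1cre/+ and p300-KO mice (3 libraries) were Crebbp+/+;Ep300fl/fl;Cg1cre/+, while WT mice (5 libraries) were Crebbp+/+;Ep300+/+;Cg1cre/+. CREBBP (CBP) and EP300 (p300) are related lysine acetyltransferases that act as coactivators of transcription. Every group carried Cg1cre, a Cre expressed from the immunoglobulin C gamma 1 locus, which acts in germinal center B cells and not throughout the animal. The labels describe the WT mice as littermates bred from Crebbp parents, and no cross is given for the CBP-KO and p300-KO mice. A difference of cross and the loss of Ep300 therefore cannot be told apart, although the numbers in the names p300-KO_287, WT_288 and p300-KO_289 follow each other. The labels give no sex or batch, and p-values measure the spread between these libraries. The comparisons ask whether transcripts for building ribosomes differ between each knockout and WT and between the knockouts.

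A ribosome is built mainly in the nucleolus, where RNA polymerase I copies the ribosomal DNA into 1 long precursor. Small nucleolar ribonucleoproteins (snoRNPs) modify that RNA, the small subunit processome folds and cuts its 18S part, and a separate set of factors assembles the 60S subunit. MYC binds the sequence CACGTG, called an E-box, with its partner MAX and drives many of these genes, together with genes of polyamine and pyrimidine synthesis and of translation initiation. In germinal centers Myc is transiently expressed in B cells that have been selected to divide again.

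Each library held 53550726 to 132861266 reads counted in genes (63281823 to 78385537 in CBP-KO, 59879689 to 103858626 in p300-KO, 53550726 to 132861266 in WT). The floxed gene Ep300 averaged 14466 ± 600.4 normalized counts in p300-KO and 21268 ± 1276 in WT (SD, n = 3 and 5; log2 fold change -0.55, limma adjusted p = 0.00015, exact two-sided permutation p = 0.0179, the smallest these group sizes allow). Crebbp averaged 8247 ± 612 in CBP-KO and 8866 ± 743 in WT (SD, n = 3 and 5; log2 fold change -0.10, limma adjusted p = 0.459, exact two-sided permutation p = 0.268), and counts over a whole gene do not check a deletion of single exons. WT_46 stood apart in macrophage transcripts, with a sum of 9396 over 13 markers against at most 4965 in the other WT libraries. p300-KO_18 held both Xist (98751) and Y-linked transcripts (9852), whereas each of the other libraries held high levels of only 1 of these kinds, so results were also computed without WT_46 and p300-KO_18. Defining markers of the sorted cell type were high in every library: the sum of 8 germinal center B cell markers was 216168 to 267841 in CBP-KO, 237515 to 264433 in p300-KO and 235495 to 257501 in WT. Single markers differed within that sum: Fas, which encodes the sorted CD95, was called lower in CBP-KO (log2 fold change -0.34, limma adjusted p = 0.0137) and p300-KO (-0.33, limma adjusted p = 0.0118). Rgs13, a regulator of G protein signaling, was also called lower in CBP-KO (-1.84, limma adjusted p = 0.00391) and p300-KO (-1.15, limma adjusted p = 0.0339). S1pr2, a receptor that holds B cells in the germinal center, was called higher in p300-KO (0.18, limma adjusted p = 0.0408).

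Several marker lists of other cell types had lower sums in the knockouts, and in most of them 1 gene made up the sum. Lck, a kinase of T cells that was also well detected in these libraries, made up 96.4% of the sum of 13 T cell markers and stood at 4700.8 to 5869.7 in CBP-KO, 4404.1 to 5705.7 in p300-KO and 8781.8 to 10932.0 in WT. Of the T cell defining genes, Cd3d, Cd3e, Cd3g, Trbc1 and Trbc2 were near 0, at no more than 5.9 in CBP-KO, 10.2 in p300-KO and 10.3 in WT. Trac, of the T cell receptor, stood at 6.0 to 7.9 in CBP-KO, 4.0 to 13.8 in p300-KO and 10.2 to 18.2 in WT. Its CBP-KO libraries lay below all WT libraries, but it was not called (limma adjusted p = 0.202). Without Lck the 12 other markers summed to 160.5 to 228.2 in CBP-KO, 245.3 to 307.8 in p300-KO and 271.9 to 351.3 in WT, so p300-KO overlapped WT and CBP-KO did not. The most abundant of these 12 was Lat, at 112.5 to 145.6 in CBP-KO, 159.9 to 179.7 in p300-KO and 184.7 to 227.7 in WT. Lat was called lower in CBP-KO (limma adjusted p = 0.00631) and not in p300-KO (limma adjusted p = 0.224). Of 7 dendritic cell markers Flt3, a growth factor receptor, made up 96.4% and was lower in both knockouts (2876.2 to 3379.0 in CBP-KO, 2512.2 to 2630.9 in p300-KO and 4140.5 to 5407.3 in WT), and the 6 others overlapped, at 68.8 to 105.9 in CBP-KO, 120.3 to 157.2 in p300-KO and 95.6 to 323.0 in WT. The sum of 13 macrophage and monocyte markers was 1970 to 2879 in CBP-KO, 2417 to 3239 in p300-KO and 3517 to 9396 in WT, and Mpeg1, a pore-forming protein, made up 62.4% of it. Without Mpeg1 the 12 others summed to 866.5 to 1167.0 in CBP-KO, 1150.2 to 1625.4 in p300-KO and 1292.6 to 2968.9 in WT, so again p300-KO overlapped WT and CBP-KO did not. Of 9 macrophage markers tested with limma, 4 were called lower in CBP-KO (Adgre1, C1qb, C1qc and Mpeg1) and 1 in p300-KO (Mpeg1). For such markers fewer cells of a type and less RNA per cell cannot be told apart in bulk samples. The 6 plasma cell markers summed to 54524 to 64631 in CBP-KO, 68255 to 81273 in p300-KO and 52903 to 62833 in WT, and Jchain made up 71.8% of the sum. In p300-KO 3 of 5 tested were called higher (Sdc1, Xbp1 and Jchain). In CBP-KO 1 of 5 was called lower, Irf4 (log2 fold change -0.73, limma adjusted p = 0.0029). Sdc1 was not called there but lay above all WT libraries (0.74, limma adjusted p = 0.0646). The neutrophil markers S100a8, Ly6g, Elane and Mpo were at 0 in every library. The part of these transcripts in the values below was not tested.

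Of the 48 genes, 3 were lower and 0 higher in CBP-KO than in WT: Odc1, Ppan and Polr1a. A gene was called where the limma adjusted p over all 16515 tested genes was below 0.05, and 4.88% of tested genes were called lower and 3.48% higher in the same comparison. In p300-KO against WT, 2 of 48 were lower and 0 higher, again Odc1 and Ppan, beside 6.09% of tested genes called lower and 5.84% higher. Called lower in both knockouts were thus 2 of 48 genes, and 1.34% of all tested genes, the WT libraries being shared by both comparisons. In CBP-KO against p300-KO, 0 of 48 passed the limma test in either direction, with 6 at an unadjusted p below 0.05, and 4.63% of tested genes were called lower and 4.79% higher. On the recovered reads edgeR called 0 and DESeq2 called 1 of 48 between the knockouts, Polr1b, lower in CBP-KO. For the counts of 0 higher, edgeR, DESeq2 and unadjusted p below 0.05 also gave 0 in each of the 3 comparisons. In either direction, 8.36% of tested genes were called in CBP-KO against WT, 11.9% in p300-KO against WT and 9.42% between the knockouts, so the shares of the 48 genes lie near or below those of all genes. Libraries of the 2 groups did not overlap for 3 genes lower and 0 higher in CBP-KO against WT (8.47% and 8.43% of tested genes), and for 4 lower and 0 higher in p300-KO against WT (9.4% and 9.63%). Between the knockouts this held for 3 genes lower and 2 higher in CBP-KO (15.6% and 15.5%). Without WT_46 and p300-KO_18 the counts were 4 lower in CBP-KO (Odc1, Ppan, Noc2l and Wdr43), 2 in p300-KO and 0 between the knockouts.

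**Figure D1:**
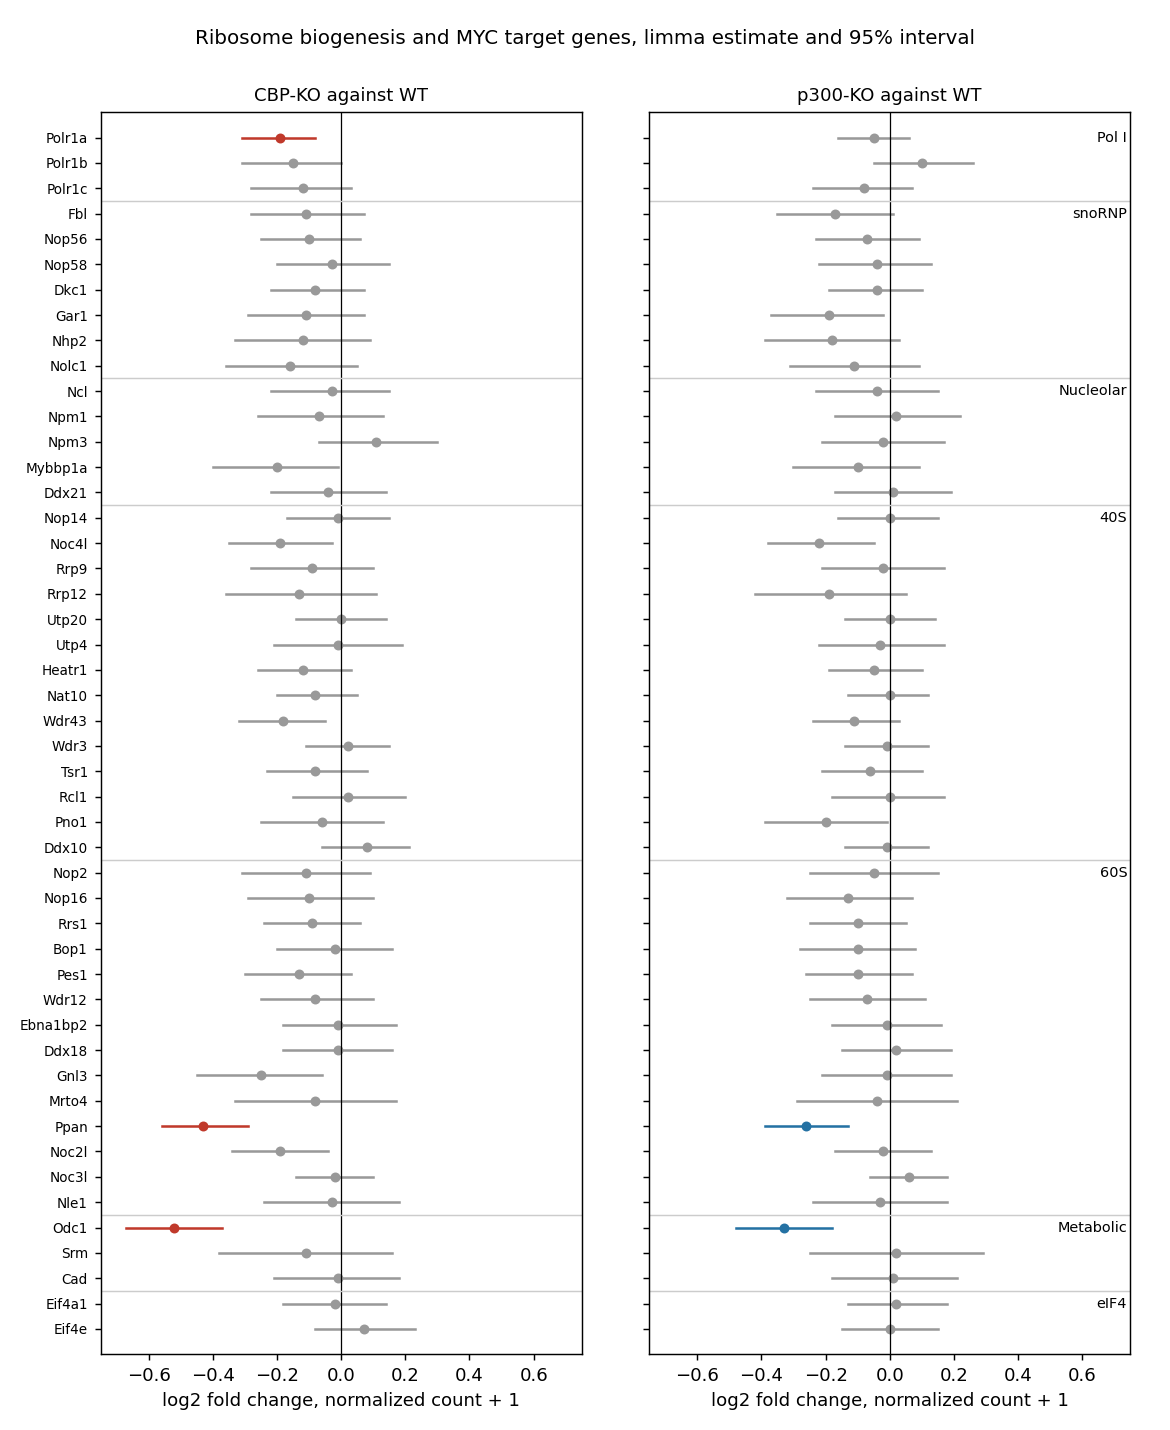
Log2 fold change (dot) with 95% interval (line) of each of the 48 genes on the log2(normalized count + 1) scale, in CBP-KO against WT (left) and p300-KO against WT (right), grouped by role from RNA polymerase I at the top to the eIF4 factors at the bottom. Coloured genes passed the test: Polr1a, Ppan and Odc1 in CBP-KO, Ppan and Odc1 in p300-KO. The other genes lie between -0.25 and 0.11 in CBP-KO and between -0.22 and 0.10 in p300-KO.

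Odc1 encodes ornithine decarboxylase, the first and rate-limiting enzyme of polyamine synthesis and a classical MYC target. It lies on chromosome 12 (17544794 to 17551505, forward strand, GRCm38). The normalized count of Odc1 was 15334.5, 14586.5 and 16229.1 in CBP-KO_1, CBP-KO_53 and CBP-KO_55, and 18536.7, 17065.9 and 17141.8 in p300-KO_18, p300-KO_287 and p300-KO_289. In WT_4, WT_7, WT_41, WT_46 and WT_288 it was 25114.0, 20045.5, 21255.1, 22241.0 and 22058.7. All CBP-KO libraries lay below all p300-KO libraries, and these below all WT libraries. Odc1 averaged 15383 ± 822 in CBP-KO and 22143 ± 1873 in WT (SD, n = 3 and 5), a log2 fold change of -0.52 (95% interval -0.67 to -0.37, limma adjusted p = 0.000738). In p300-KO it averaged 17582 ± 828 (SD, n = 3), a log2 fold change of -0.33 against WT (95% interval -0.48 to -0.18, limma adjusted p = 0.0079). The knockouts differed by -0.19 (95% interval -0.36 to -0.03), which did not pass after adjustment (limma adjusted p = 0.135). Both calls against WT held whichever library was left out and under each of the 13 other settings.

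Reads of Odc1 can be shared with copies of it. The table held 7 genes whose transcripts match Odc1 at 95% identity or more over at least 300 bases. Their summed normalized count was 1189 ± 88.4 in CBP-KO, 1278 ± 164 in p300-KO and 1360 ± 79.4 in WT (SD), or 6.78% of the mean of Odc1. How reads that match more than 1 gene were counted is not given, and their part in the Odc1 values was not tested.

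Ppan encodes peter pan, a factor of 60S subunit assembly. It lies on chromosome 9 (20888175 to 20892178, forward strand). Its normalized count was 5343.6, 5713.0 and 6194.7 in CBP-KO_1, CBP-KO_53 and CBP-KO_55, and 6949.9, 6106.3 and 6256.9 in p300-KO_18, p300-KO_287 and p300-KO_289. In WT_4, WT_7, WT_41, WT_46 and WT_288 it was 7984.0, 7937.1, 7685.9, 7526.6 and 7432.9. Neither knockout overlapped WT, whereas CBP-KO_55 lay within the range of the p300-KO libraries. Ppan also had the narrowest spread of the 48 genes in WT, with a coefficient of variation of 3.16%. The log2 fold change of Ppan was -0.43 in CBP-KO against WT (SE 0.06, limma adjusted p = 0.00125) and -0.26 in p300-KO against WT (SE 0.06, limma adjusted p = 0.0147). Between the knockouts it was -0.16 (95% interval -0.31 to -0.02, limma adjusted p = 0.155). The call in CBP-KO held whichever library was left out, and that in p300-KO was lost without p300-KO_287 or p300-KO_289 (limma adjusted p up to 0.0675).

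Polr1a encodes the largest subunit of RNA polymerase I. It lies on chromosome 6 (71909053 to 71984935, forward strand). Its normalized count was 5920.4, 6042.5 and 6219.8 in CBP-KO_1, CBP-KO_53 and CBP-KO_55, and 6854.6, 6239.7 and 6970.9 in p300-KO_18, p300-KO_287 and p300-KO_289. In WT_4, WT_7, WT_41, WT_46 and WT_288 it was 7330.6, 6871.3, 6657.2, 6962.0 and 6813.5. The CBP-KO libraries lay below all others, and the p300-KO libraries overlapped those of WT. The log2 fold change was -0.19 in CBP-KO against WT (95% interval -0.31 to -0.08, limma adjusted p = 0.0398) and -0.05 in p300-KO against WT (95% interval -0.16 to 0.06, limma adjusted p = 0.596). Between the knockouts it was -0.14 (95% interval -0.27 to -0.01, limma adjusted p = 0.155), which did not pass. The Polr1a call was lost in 8 of the 11 fits that left out 1 library (CBP-KO_1, CBP-KO_53, CBP-KO_55, p300-KO_18, WT_4, WT_7, WT_46 or WT_288; limma adjusted p up to 0.136). It was also lost without WT_46 and p300-KO_18 together and without the filter on low counts (limma adjusted p up to 0.07).

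**Figure D2:**
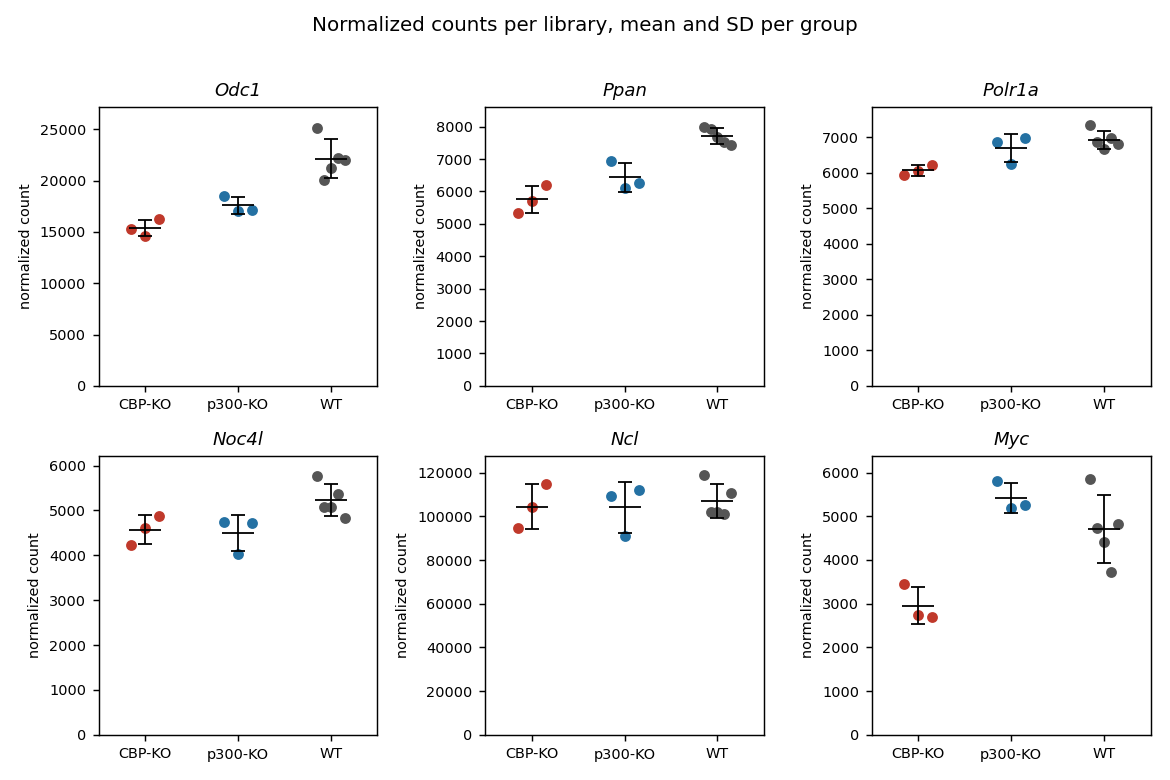
Normalized counts of Odc1, Ppan, Polr1a, Noc4l, Ncl and Myc in each library (dots) with the mean and SD of each group (bars), for 3 CBP-KO, 3 p300-KO and 5 WT libraries, with axes from 0. The groups do not overlap for Odc1, and both knockouts lie below WT for Ppan; Ncl overlaps across the groups, and for Myc the CBP-KO libraries lie lowest, at 2697.8 to 3440.5.

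The start regions of these genes were compared because MYC binds E-boxes and CREB, the factor for which CBP was named, binds the cAMP response element TGACGTCA. RefSeq sequence (GRCm38.p6) from 250 bases before to 50 bases after the start was at hand for 42 of the 48 genes. The letters searched were CACGTG and TGACGTCA, which read the same on both strands, and the shorter TGACG on either strand, which also lies within TGACGTCA. CACGTG was found in 11 of 42 genes (26.2%), against 8.09% of 27025 genes with such a sequence and 11.5% of the 10207 tested genes among them. TGACGTCA was found in 2 of 42 (4.76%), in Ppan and Noc4l, against 2.03% of all and 3.58% of tested genes. TGACG was found in 21 of 42 (50%), against 23.0% of all and 34.8% of tested genes. The 250 bases before the start are shown for the 3 called genes and for Noc4l, a factor of 40S maturation chosen after its values were seen, with TGACGTCA and TGACG in capitals:
Odc1, chr12:17544623-17544872, forward strand: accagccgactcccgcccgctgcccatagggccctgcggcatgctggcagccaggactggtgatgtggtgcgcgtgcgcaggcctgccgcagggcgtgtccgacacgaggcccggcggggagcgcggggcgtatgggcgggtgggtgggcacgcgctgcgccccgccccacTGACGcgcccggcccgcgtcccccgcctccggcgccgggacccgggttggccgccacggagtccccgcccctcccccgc
Ppan, chr9:20887925-20888174, forward strand: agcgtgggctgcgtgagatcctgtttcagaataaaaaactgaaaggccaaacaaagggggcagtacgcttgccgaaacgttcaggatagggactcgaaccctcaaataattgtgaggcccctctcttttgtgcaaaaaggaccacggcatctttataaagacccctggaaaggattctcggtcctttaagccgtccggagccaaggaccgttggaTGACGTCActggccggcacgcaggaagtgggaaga
Polr1a, chr6:71908803-71909052, forward strand: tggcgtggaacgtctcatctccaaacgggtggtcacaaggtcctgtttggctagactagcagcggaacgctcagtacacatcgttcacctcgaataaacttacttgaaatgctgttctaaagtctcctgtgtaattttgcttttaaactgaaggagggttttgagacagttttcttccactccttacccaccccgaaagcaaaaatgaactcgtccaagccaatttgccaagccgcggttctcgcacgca
Noc4l, chr5:110653383-110653632, reverse strand: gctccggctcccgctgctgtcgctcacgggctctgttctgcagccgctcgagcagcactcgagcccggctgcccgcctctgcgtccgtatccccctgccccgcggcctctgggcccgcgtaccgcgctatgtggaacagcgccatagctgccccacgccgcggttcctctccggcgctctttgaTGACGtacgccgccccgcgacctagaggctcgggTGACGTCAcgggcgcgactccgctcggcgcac
In Odc1 the letters TGACG begin 79 bases before the RefSeq start, in Ppan TGACGTCA begins 35 bases before it, and in Noc4l TGACG begins 66 and TGACGTCA 32 bases before it. The Polr1a window held neither. The RefSeq starts of Odc1 and Noc4l lie within the span of the GENCODE gene, so these windows reach into it. A match of letters is a description and no binding was measured.

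None of the 3 called genes held CACGTG in its window. The 11 genes that did were Eif4a1, Eif4e, Mybbp1a, Nle1, Nop2, Pes1, Pno1, Tsr1, Utp20, Utp4 and Wdr43, with 2 matches in Eif4e. The match is shown in capitals with the bases beside it for a few genes of different roles:
Nop2, 60S assembly, chr6:125131813-125131838, forward strand: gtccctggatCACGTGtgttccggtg
Pes1, 60S assembly, chr11:3963967-3963992, forward strand: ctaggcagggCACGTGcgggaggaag
Wdr43, small subunit processome, chr17:71616222-71616247, forward strand: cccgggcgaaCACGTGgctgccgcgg
Utp4, small subunit processome, chr8:106893645-106893670, forward strand: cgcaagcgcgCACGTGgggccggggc
Eif4e, cap binding, chr3:138527030-138527055, forward strand: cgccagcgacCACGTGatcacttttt
Eif4e, cap binding, chr3:138527194-138527219, forward strand: acacgtccgtCACGTGggcaggagcc
The median log2 fold change of the 11 genes with CACGTG was -0.06 in CBP-KO and -0.05 in p300-KO against WT, and that of the 31 genes without it was -0.08 in CBP-KO and -0.04 in p300-KO. The 2 groups of genes overlapped widely, from -0.20 to 0.07 with and from -0.52 to 0.11 without it in CBP-KO against WT.

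RNA polymerase I was represented by Polr1a and 2 further subunits, Polr1b, which forms the catalytic center with Polr1a, and Polr1c, which is shared with RNA polymerase III. Polr1b averaged 2730 ± 193 in CBP-KO, 3260.0 ± 182.5 in p300-KO and 3040 ± 215 in WT (SD). Its WT values were 3363.6, 3047.5, 2897.7, 2800.8 and 3092.4 in WT_4, WT_7, WT_41, WT_46 and WT_288. CBP-KO_55, p300-KO_287 and p300-KO_289 lay within that range. Its log2 fold change was -0.15 in CBP-KO (limma adjusted p = 0.221) and 0.10 in p300-KO against WT (limma adjusted p = 0.413). The CBP-KO libraries of Polr1b (2633.2, 2604.7 and 2952.1) lay below those of p300-KO (3432.7, 3069.1 and 3278.1), a difference of -0.26 with a limma adjusted p of 0.0624, the lowest of the 48 genes between the knockouts. Polr1b was called there without WT_4 or WT_46, and with quantile normalization, library weights or DESeq2. Polr1c had log2 fold changes of -0.12 in CBP-KO and -0.08 in p300-KO.

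The 7 snoRNP genes comprised those for the box C/D proteins Fbl (fibrillarin, the methyltransferase), Nop56 and Nop58, the box H/ACA proteins Dkc1 (dyskerin, the pseudouridine synthase), Gar1 and Nhp2, and the assembly chaperone Nolc1. With limma, edgeR and DESeq2 alike 0 of 7 passed in either knockout, with 0 in CBP-KO and 1 in p300-KO at an unadjusted p below 0.05. Their log2 fold changes ran from -0.16 to -0.03 in CBP-KO and from -0.19 to -0.04 in p300-KO against WT. Thus 7 of 7 were below 0 in each, beside 48.8% of all tested genes in CBP-KO and 51.0% in p300-KO. Fbl averaged 10785 ± 1137 in CBP-KO, 10329 ± 1136 in p300-KO and 11589 ± 683 in WT (SD).

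The abundant nucleolar proteins were Ncl (nucleolin), Npm1 (nucleophosmin, a histone and ribosome chaperone), Npm3, Mybbp1a and the helicase Ddx21. Ncl had the highest mean normalized count of the 48 genes, 105522, and lies on chromosome 1 (86344719 to 86359400). Its values were 94553.2, 104219.2 and 114774.4 in CBP-KO_1, CBP-KO_53 and CBP-KO_55, and 109558.4, 90876.3 and 112069.8 in p300-KO_18, p300-KO_287 and p300-KO_289. In WT_4, WT_7, WT_41, WT_46 and WT_288 it stood at 119008.1, 101819.5, 101862.1, 101102.0 and 110899.6. The groups overlapped, and the log2 fold change was -0.03 in CBP-KO (95% interval -0.22 to 0.15, limma adjusted p = 0.868) and -0.04 in p300-KO against WT (95% interval -0.23 to 0.15, limma adjusted p = 0.824). The other genes of this role ran from -0.20 (Mybbp1a) to 0.11 (Npm3) in CBP-KO and from -0.10 (Mybbp1a) to 0.02 (Npm1) in p300-KO.

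The 14 genes of the small subunit processome and 40S maturation were Nop14, Noc4l, Rrp9, Rrp12, Utp20, Utp4, Heatr1, Nat10 (the acetyltransferase of 18S rRNA), Wdr43, Wdr3, Tsr1, Rcl1, Pno1 and Ddx10. With limma, edgeR and DESeq2 alike 0 of 14 passed in either knockout, with 2 at an unadjusted p below 0.05 in each. The log2 fold changes ran from -0.19 (Noc4l) to 0.08 (Ddx10) in CBP-KO and from -0.22 (Noc4l) to -0.00 in p300-KO. The median of the 14 genes in p300-KO was -0.02. There 14 of 14 were below 0, several of them by very little, beside 51.0% of all tested genes. Noc4l, on chromosome 5 (110648418 to 110653417, reverse strand), stood at 4239.4, 4602.5 and 4882.4 in CBP-KO_1, CBP-KO_53 and CBP-KO_55, and at 4746.0, 4028.0 and 4713.8 in p300-KO_18, p300-KO_287 and p300-KO_289. In WT_4, WT_7, WT_41, WT_46 and WT_288 it stood at 5772.2, 5067.0, 5076.8, 5369.2 and 4840.5. The p300-KO libraries lay below all WT libraries, with limma adjusted p = 0.0814, and CBP-KO_55 overlapped WT (limma adjusted p = 0.147). With a covariate for the sex read from Xist and Y-linked transcripts, Noc4l was called lower in CBP-KO (limma adjusted p = 0.041) and p300-KO (limma adjusted p = 0.0185). That fit took p300-KO_18 as female although it held both kinds of transcript, and without p300-KO_18 the same fit gave a limma adjusted p of 0.0595 in CBP-KO and 0.0479 in p300-KO. Rrp12 also did not overlap between p300-KO (2433.9 to 3180.9) and WT (3211.5 to 3485.2), while its interval reached 0 (-0.42 to 0.05, limma adjusted p = 0.309). Wdr43 had the lowest adjusted p in CBP-KO among genes not called (log2 fold change -0.18, limma adjusted p = 0.0916).

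The 14 genes of 60S assembly were Ppan, Nop2 (an rRNA methyltransferase), Nop16, Rrs1, the PeBoW complex of Pes1, Bop1 and Wdr12, Ebna1bp2, Ddx18, Gnl3 (nucleostemin), Mrto4, Noc2l, Noc3l and Nle1. Besides Ppan none passed the test. The other 13 ran from -0.25 (Gnl3) to -0.01 in CBP-KO, all below 0, beside 48.8% of all tested genes. In p300-KO the other 13 ran from -0.13 (Nop16) to 0.06 (Noc3l). Gnl3 averaged 4480 ± 621 in CBP-KO, 5292 ± 420 in p300-KO and 5327 ± 427 in WT (SD), with limma adjusted p = 0.113 in CBP-KO, and was called lower in CBP-KO without CBP-KO_55 (limma adjusted p = 0.0428). Noc2l (log2 fold change -0.19 in CBP-KO) and Wdr43 were called lower in CBP-KO without WT_46, with limma adjusted p = 0.0385 for Noc2l and 0.0333 for Wdr43.

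The genes of metabolism other than Odc1 were Srm, spermidine synthase, and Cad, which carries out the first steps of pyrimidine synthesis. Srm averaged 3992 ± 679 in CBP-KO, 4362 ± 640 in p300-KO and 4292 ± 527 in WT (SD), and its 95% interval ran from -0.38 to 0.16 in CBP-KO. Cad had log2 fold changes of -0.01 in CBP-KO and 0.01 in p300-KO. Of the initiation factors, Eif4a1, the RNA helicase, stood at -0.02 in CBP-KO and 0.02 in p300-KO, and Eif4e, which binds the mRNA cap, at 0.07 in CBP-KO (limma adjusted p = 0.594). In p300-KO the 95% interval of Eif4e ran from -0.15 to 0.15. Differences from WT of more than 1.5-fold lay outside the 95% interval of 45 of 45 genes not called in CBP-KO and 46 of 46 in p300-KO, since the widest bounds were -0.45 and 0.30 in CBP-KO and -0.42 and 0.29 in p300-KO. With called genes included, the same held for 47 of 48 genes in CBP-KO (97.9%) and 48 of 48 in p300-KO, and for 60.2% of all tested genes in CBP-KO and 59.0% in p300-KO. For the 253 other pathway genes described below the shares were 94.9% in CBP-KO and 94.1% in p300-KO, so narrow intervals were not particular to the 48 genes.

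Across the 48 genes the log2 fold change was below 0 for 43 and above it for 5 in CBP-KO, with a median of -0.08 (0.01 over all tested genes, of which 48.8% were below 0). In p300-KO it was below 0 for 40 and above it for 8, with a median of -0.04 (-0.01 over all tested genes, 51.0% below 0). For scale, the medians of the 5 WT libraries over the 48 genes had an SD of 0.08. Leaving out 1 library moved the median between -0.14 and -0.03 in CBP-KO and between -0.07 and 0.02 in p300-KO, where it was above 0 without p300-KO_287. The 48 genes moved together from library to library, so a count of signs is not a count of independent genes.

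Library by library, the shared level differed within each group. Measured as the median deviation of the 48 genes from their WT mean, CBP-KO_1 stood at -0.18 and CBP-KO_53 at -0.12, with 45 and 43 of 48 genes below the WT mean, whereas CBP-KO_55 stood at 0.06 with 34 above. In p300-KO the low library was p300-KO_287 at -0.19 (46 of 48 below), and p300-KO_18 and p300-KO_289 had 23 and 26 of 48 above. Among WT libraries WT_4 stood at 0.14 with 48 of 48 genes above the mean, and the others ran from -0.07 to 0.04. The lowest of the 11 values lay in p300-KO_287 for 21 genes and in CBP-KO_1 for 14, and the highest in WT_4 for 31. Together the 48 genes took 0.649% to 0.767% of the normalized counts in CBP-KO, 0.665% to 0.765% in p300-KO and 0.705% to 0.791% in WT. CBP-KO_1 and p300-KO_287 were also the libraries of their groups with Y-linked transcripts and no appreciable Xist, as were WT_41 and WT_288, which stood at -0.05 and 0.04. With sex as a covariate 4 of 48 genes were lower in CBP-KO and 3 of 48 in p300-KO (3 and 3 without p300-KO_18), with medians of -0.08 and -0.05.

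**Figure D3:**
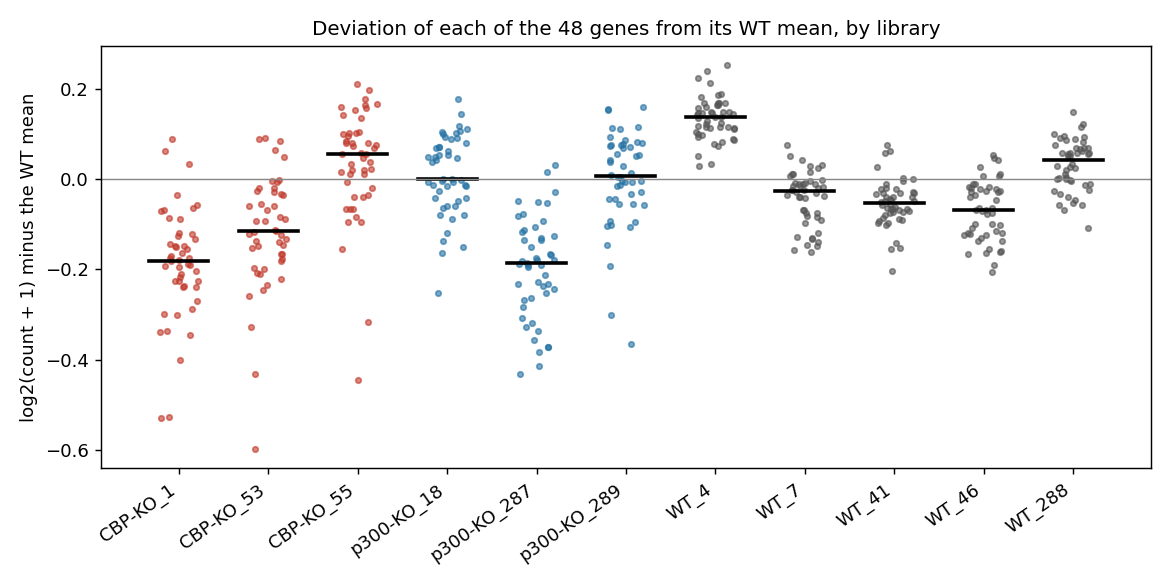
Deviation of each of the 48 genes (dots) from its own WT mean on the log2(normalized count + 1) scale, for the 11 libraries, with the median of each library as a line. The medians run from -0.18 to 0.06 in CBP-KO, from -0.19 to 0.01 in p300-KO and from -0.07 to 0.14 in WT; the lowest dots in the CBP-KO libraries include Odc1 and Ppan.

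After subtraction of group means, the median pairwise Pearson correlation among the 48 genes over the 11 libraries was 0.75, against -0.00 over all tested genes. It is a description over libraries that share scaling and depth. By role the median was highest among the abundant nucleolar proteins (0.89) and snoRNP genes (0.86), and lower among 60S factors (0.70), 40S factors (0.68), RNA polymerase I subunits (0.66) and the metabolic genes (0.64). Ncl and Nolc1 followed the other genes most closely (0.86 each), and Nat10 (0.47), Heatr1 (0.55), Odc1 (0.61) and Ppan (0.63) least. Against the median of the 48 genes in the same library, Odc1 stood at -0.35, -0.48 and -0.50 in CBP-KO_1, CBP-KO_53 and CBP-KO_55, at -0.25, -0.19 and -0.37 in p300-KO_18, p300-KO_287 and p300-KO_289, and at -0.11 to 0.08 in WT. Ppan stood at -0.35, -0.32 and -0.37 in CBP-KO, at -0.15, -0.15 and -0.31 in p300-KO and at -0.10 to 0.07 in WT, in the same library order. On this scale, too, neither gene overlapped between a knockout and WT. Polr1a stood at -0.05, -0.08 and -0.21 in CBP-KO and at -0.07 to 0.08 in WT, so its groups overlapped once the shared level was taken out.

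The 48 genes were well expressed, with mean normalized counts of 1253 (Nle1) to 105522 (Ncl), the 52.9th to 99.8th percentile of tested genes. Their coefficient of variation in WT ran from 3.16% to 12.3% with a median of 7.25%, against 11% over all tested genes. Per kilobase of the shortest principal transcript, levels in WT ran from 44783 (Npm1) over 27649 (Eif4a1), 13038 (Ncl), 10029 (Odc1) and 9682 (Fbl) down to 677 (Noc3l). The length taken for Ncl, 8202 bases, is the only annotated principal transcript, and if most Ncl mRNA is shorter, its level per kilobase and its place among the genes are understated. Odc1 stood at 6967 ± 373 per kilobase in CBP-KO, 7963 ± 375 in p300-KO and 10029 ± 848 in WT (SD). Some reads may belong to copies: genes similar to Eif4a1 held 15.3% of its mean, and those similar to Npm1 held 12.0% of its mean.

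**Figure D4:**
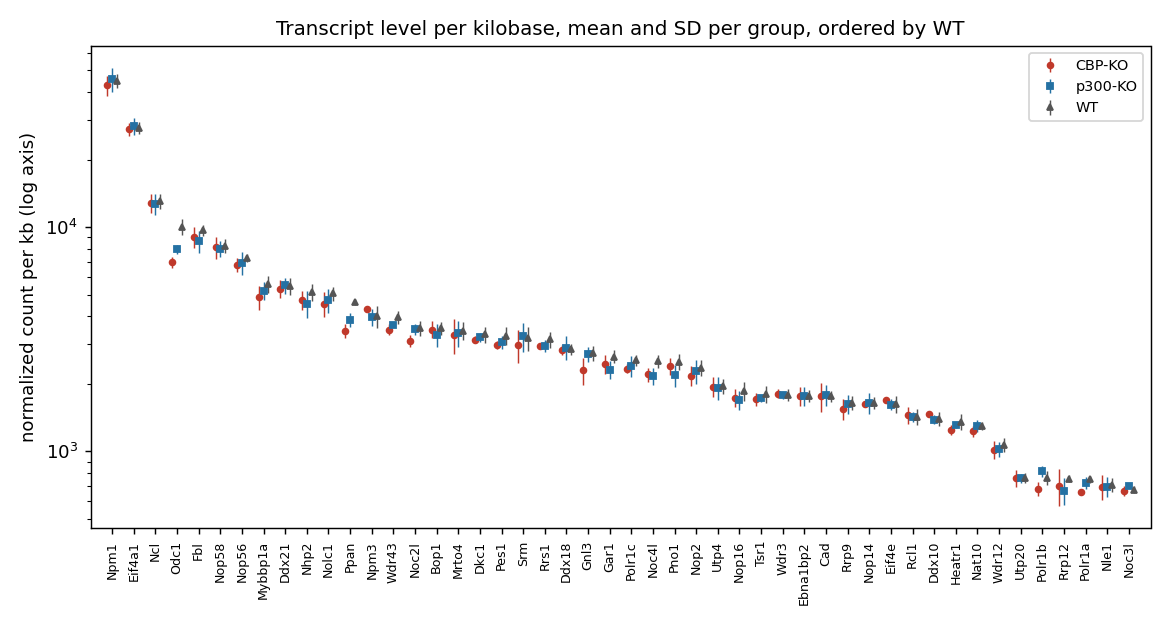
Normalized count per kilobase of transcript (log axis) of the 48 genes, mean and SD of 3 CBP-KO, 3 p300-KO and 5 WT libraries, ordered by WT. Npm1 leads at 44783 in WT and Noc3l is last at 677; the CBP-KO and p300-KO means of Odc1 lie at 6967 and 7963, below 10029 in WT.

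The 48 genes lie on 18 chromosomes, with 8 on chromosome 11. The annotation places 27 snoRNA genes within 10 of them, including Odc1 (1) and Ppan (2). The library kit does not mark strand, and exons of 19 of the 48 overlap a gene on the opposite strand. The overlap takes at least 10% of the exon bases in 3 of them: Tsr1 (32.3%), Noc2l (20.9%) and Wdr3 (15.7%). For Polr1a it takes 1.6%.

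Myc, whose protein drives many of the 48 genes, stood at 3440.5, 2735.5 and 2697.8 in CBP-KO_1, CBP-KO_53 and CBP-KO_55, and at 5801.0, 5183.4 and 5267.8 in p300-KO_18, p300-KO_287 and p300-KO_289. In WT_4, WT_7, WT_41, WT_46 and WT_288 it stood at 5850.2, 4736.9, 4404.1, 3720.0 and 4831.8. The CBP-KO libraries lay below all others, with a log2 fold change of -0.66 against WT (95% interval -0.93 to -0.40, limma adjusted p = 0.00586), and p300-KO overlapped WT (0.22, 95% interval -0.05 to 0.48, limma adjusted p = 0.30). The knockouts differed by -0.88 (limma adjusted p = 0.00207). In the same CBP-KO libraries 3 of the 48 target and nucleolar genes were called lower and 0 higher, beside 4.88% and 3.48% of all tested genes. The log2 fold change was below 0 for 43 of the 48, and for 48.8% of all tested genes. In p300-KO, where Myc was not called, it was below 0 for 40 of the 48 and for 51.0% of all tested genes. CBP-KO_55 held the lowest Myc count of the 11 libraries, and 34 of the 48 genes stood above their WT mean there. A link between the level of Myc and these genes was not tested. Of 13 tested genes of MYC, MAX and their cofactors, 1 was higher and 2 lower in CBP-KO (3.48% and 4.88% of all tested genes). In p300-KO 3 were higher and 3 lower (5.84% and 6.09% of all tested genes). Mxi1, a MAX partner that opposes MYC, rose in both (log2 fold changes of 0.82 and 0.76 in CBP-KO and p300-KO), and Mxd3, of the same family, fell in both (-0.34 and -0.23 in CBP-KO and p300-KO). Mxd4, another MAX partner, rose in p300-KO (0.80), and Mlxip fell there (-0.35). The calls of Myc, Mxi1 and Mxd4 held whichever library was left out. That of Mxd3 in p300-KO was lost without p300-KO_287, and that of Mlxip without p300-KO_18 or p300-KO_289.

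**Figure D5:**
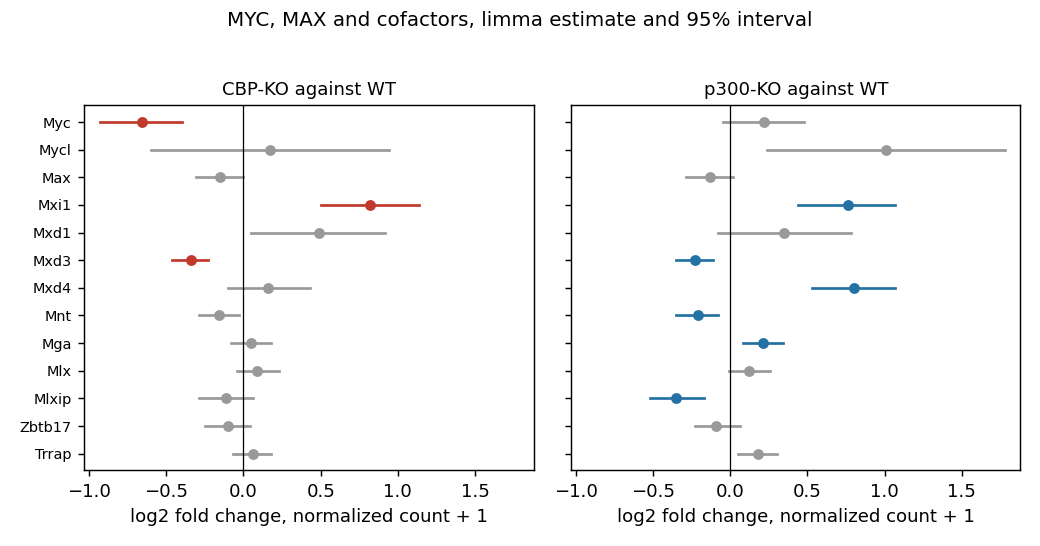
Log2 fold change (dot) with 95% interval (line) of 13 genes of MYC, MAX and their cofactors on the log2(normalized count + 1) scale, in CBP-KO against WT (left) and p300-KO against WT (right); coloured genes passed the test. Myc lies at -0.66 in CBP-KO and 0.22 in p300-KO, and Mxi1 at 0.82 in CBP-KO and 0.76 in p300-KO.

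Other genes of the pathway were taken from lists of 269 symbols, of which 253 were tested. In CBP-KO 3 were higher and 7 lower than in WT (3.48% and 4.88% of all tested genes), with a median log2 fold change of -0.03. In p300-KO 8 were higher and 22 lower (5.84% and 6.09% of all tested genes), with a median of -0.07. Between the knockouts 12 were higher and 4 lower in CBP-KO (4.79% and 4.63% of all tested genes). Counts of the single lists below are to be read beside the same shares of all tested genes. Of 20 further genes of RNA polymerase I transcription 0 passed in CBP-KO with limma, edgeR or DESeq2 (1 at an unadjusted p below 0.05), and Baz2a, of the nucleolar remodelling complex, rose in p300-KO (0.28). Of 52 further 60S factors 3 were lower in CBP-KO, Surf6 (-0.22), Nop53 (-0.21) and Rrp1b (-0.26). In p300-KO 6 were lower, among them Ddx54 (-0.32), Zfp622 (-0.36), Ddx27 (-0.29) and Eif6 (-0.25), which keeps the subunits apart. Of 45 further genes of the small subunit processome, Utp14b (-0.33) and Nol7 (-0.20) fell in p300-KO and 0 passed in CBP-KO with limma, edgeR or DESeq2 (2 at an unadjusted p below 0.05). Of 19 further snoRNP genes Pih1d1, of the assembly complex, fell in p300-KO (-0.27), and 0 passed in CBP-KO with limma, edgeR or DESeq2 (2 at an unadjusted p below 0.05).

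Of 29 genes of the exosome and rRNA trimming 1 was lower in CBP-KO, Xrn2, the nuclear exonuclease (-0.22). In p300-KO 4 were lower, Xrn2 (-0.16), Exosc5 (-0.29), Exosc8 (-0.22) and Rpp25 (-1.12). Of 41 genes of polyamine and nucleotide synthesis 1 was lower in CBP-KO, Adsl, adenylosuccinate lyase (-0.31). In p300-KO 5 were lower, among them Prps2 (-0.54), Mthfd1l (-0.34) and the spermine synthase Sms (-0.27), and 2 were higher. Of 29 partners of eIF4E and eIF4A, Eif4e3, a relative of Eif4e, rose in CBP-KO (1.25), while in p300-KO Pdcd4, an inhibitor of eIF4A (0.74), and Mknk1, an eIF4E kinase (0.24), rose and Eif1 fell (-0.20). Of 5 genes of p53 and the 5S RNP of nucleolar stress, Cdkn2a rose in CBP-KO (1.30) and 0 passed in p300-KO with limma, edgeR or DESeq2 (0 at an unadjusted p below 0.05). Left-out libraries ended many of these calls. In CBP-KO those of Cdkn2a and Eif4e3 held in all 11 such fits, those of Adsl and Xrn2 were lost without CBP-KO_53, that of Surf6 was lost in 4 fits (without CBP-KO_1, CBP-KO_53, CBP-KO_55 or WT_4), and those of Nop53 and Rrp1b were lost in 9 each. In p300-KO those of Ddx54, Zfp622, Utp14b, Pih1d1, Prps2 and Mthfd1l held in all 11. Those of Ddx27, Eif6, Exosc5, Nol7 and Pdcd4 were lost without p300-KO_287, that of Rpp25 without p300-KO_289 and that of Sms without p300-KO_18 or p300-KO_287. Those of Baz2a, Eif1, Mknk1, Exosc8 and Xrn2 were lost in 5, 6, 7, 8 and 10 of the 11 fits.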

How the data were processed

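RNA of 11 libraries of sorted mouse germinal center B cells (3 CBP-KO, 3 p300-KO, 5 WT) was read from 1 deposited table with a column per library. Signal in the deposited table is the count of reads per gene after the authors' division by DESeq2 size factors. Per the submitters' processing notes, CASAVA 1.8, HISAT2, featureCounts and DESeq2 were used with the genome build mm10, and settings are not given in the sources used here. Per the labels' protocols, libraries were made with the TruSeq RNA v2 kit, which does not mark strand. All values were whole multiples of a step per library within 1e-06 (100%), so whole reads were recovered, and all 11 columns were used. The 48 genes and all lists were chosen with earlier results of these data known.

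Of 48593 genes, 22043 were 0 in every library. The 16515 genes whose mean reached 10 were tested with limma 3.58.1 with a variance trend on log2(normalized count + 1), in 1 fit of 3 groups without covariate, two-sided, with Benjamini-Hochberg adjustment over all tested genes and a threshold of 0.05. Fold changes are on that scale, and group values are mean ± SD of normalized counts. Of the 48 genes, values in each library are given for called genes, for the gene with the highest mean, and for Noc4l and Polr1b, chosen after their values were seen. Other pathway genes are named by the smallest p, up to 4 called per list and comparison. Others were named after their values were seen, and 1 gene that this rule takes is not reported here. Annotation was GENCODE M21 on GRCm38, the same build as mm10, and start sequences were from RefSeq on GRCm38.p6.

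Alternatives were pseudocounts of 0.5 and 4, no filter, a mean of at least 50, quantile and TMM normalization, fits of only the groups compared, library weights, a sex covariate (also without p300-KO_18, chosen after seeing the data), omission of WT_46 and p300-KO_18 or of each library, and count tests on the recovered reads with DESeq2 1.42.0 and edgeR 4.0.16. The procedure was tested on simulated data in which 200 genes, drawn from all 16515 tested genes, were changed. Of 1.5-fold changes it recovered 48% in CBP-KO against WT, 55% in p300-KO against WT and 32.5% between the knockouts. Of 2-fold changes it recovered 68.5%, 69% and 65% in the same order. Each of these runs gave 3 to 9 false calls. R 4.3.3 and Python 3.11.15 were used.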

Additional observations from a re-analysis of the deposited data

Results flagged for a closer look

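Among the 48 genes, WT_4 was flagged as high among the WT libraries for Fbl (12780.7, next 11412.0), Rrp12 (3485.2, next 3253.4) and Bop1 (9903.4, next 8745.1). These are 3 of 48 groups of 5 WT libraries tested, and chance alone flags about 1 in 20 where genes are independent. The 48 genes were not independent, and WT_4 stood above the WT mean for 48 of them.

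For 9 other pathway genes named here and called in a knockout against WT, the direct comparison of CBP-KO with p300-KO also passed the limma test, as log2 fold changes of CBP-KO against p300-KO. Those lower in CBP-KO were Myc (-0.88), Mxd4 (-0.63) and Rrp1b (-0.38). Those higher in CBP-KO were Cdkn2a (1.10), Prps2 (0.86), Eif4e3 (0.77), Ddx54 (0.30), Mthfd1l (0.26) and Zfp622 (0.22). The labels give a cross for the WT mice only, so cross and genotype cannot be told apart in these differences.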

How the results depend on the processing

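No paired analysis was possible because no replicate number occurs in more than 1 group. Odc1 was called lower in both knockouts under all 24 alternatives, and Ppan in CBP-KO likewise. With library weights 6 of the 48 genes were lower in CBP-KO than in WT and 5 in CBP-KO than in p300-KO, where quantile normalization and DESeq2 each gave 1. Over all genes, library weights called 2730 in CBP-KO against WT and 2808 between the knockouts, where DESeq2 called 2337. Other pathway genes in CBP-KO against WT numbered 6 higher and 14 lower with library weights, and 7 higher with DESeq2. In p300-KO against WT 4 were higher without the filter and 4 with only the 2 groups fitted. Between the knockouts the higher count was 5 without the filter, 20 with library weights, 7 without WT_46 and p300-KO_18 and 19 with DESeq2, and the lower count was 7 with library weights. With the sex covariate and without p300-KO_18, an alternative added after the data were seen, 4 other pathway genes were higher in p300-KO than in WT, and between the knockouts 4 were higher and 913 of all genes were called. The causes were not tested.

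Leaving out each library gave 2 to 4 genes of the 48 lower in CBP-KO, 1 to 2 in p300-KO and 0 to 1 between the knockouts. Over all genes it gave 642 (without CBP-KO_55) to 1541 in CBP-KO, 1169 to 2027 in p300-KO and 745 to 1954 between the knockouts. Other pathway genes ranged over 3 to 4 higher and 2 to 8 lower in CBP-KO, 2 to 9 higher and 10 to 27 lower in p300-KO, and 4 to 13 higher and 3 to 5 lower between the knockouts. The median of the 48 genes between the knockouts ran from -0.09 to 0.02. The lowest mean of the 48 genes was 1253 normalized counts, and the precision at other depths or with more libraries was not tested.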

Other observations

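Among other pathway genes, Prps2, a phosphoribosyl pyrophosphate synthetase, stood at 17109.6, 18565.3 and 16318.7 in CBP-KO, at 8704.8, 9678.8 and 10195.3 in p300-KO, and at 11598.4 to 16394.6 in WT. The p300-KO libraries lay below all others. Its limma test against WT is given with the pathway lists.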
